A study of Mus musculus and Homo sapiens with 7 samples.

Results

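MT-RNR1 is the mitochondrial gene for the 12S rRNA, the RNA core of the small subunit of the mitochondrial ribosome. Its profile was taken from an RNA immunoprecipitation of EOLA1 in HEK293T cells, a human embryonic kidney line, in 2 replicates. Counts were given in bins of 50 bases along the mitochondrial chromosome (GRCh38.p14), and the 19 bins whose midpoint lies in the gene, from chrM:651-1600, were taken of 332 bins in all. Cells were irradiated with ultraviolet light at 400 mJ/cm2, which joins RNA to proteins in direct contact with it, and an EOLA1 antibody then pulled the protein and its RNA out of the lysate. The labels name no genotype and no drug treatment for these cells, and nothing in them says that the replicates came from separate cultures, so the spread given may be technical. A pooled guide screen of the same series, in mouse melanoma cells, has no bearing on this RNA and was not used.

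The 12S rRNA folds into 4 domains that follow each other along the molecule: the 5' domain, the central domain, the 3' major domain and the 3' minor domain. In the ribosome the 5' domain forms the body, the central domain the platform that faces the large subunit, and the 3' major domain the head. The 3' minor domain holds the helix where the ribosome reads codons. The neck that joins head and body is formed where the central and 3' major domains meet. The rRNA is cut out of a long heavy-strand transcript in which MT-TF, the tRNA for phenylalanine, precedes it and MT-TV, the tRNA for valine, follows it. EOLA1 carries an ASCH domain, a fold proposed to bind RNA.

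The question was where along the 12S rRNA the RNA recovered with EOLA1 lay. Counts were concentrated in a single peak at the junction of the central and 3' major domains, from 1151 to 1250, in both replicates. These 2 bins held 50.8% of the MT-RNR1 counts in replicate 1 and 46.3% in replicate 2, or 48.6% ± 3.16 (SD, n = 2). A smaller peak lay near the 3' end, between 1401 and 1500, and held 15.4% and 20.2%. The 5' domain was the least covered, with 4.94% and 5.49% of the counts in 26.3% of the bins. No bin of the gene was at 0 in either replicate.

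**Figure D1:**
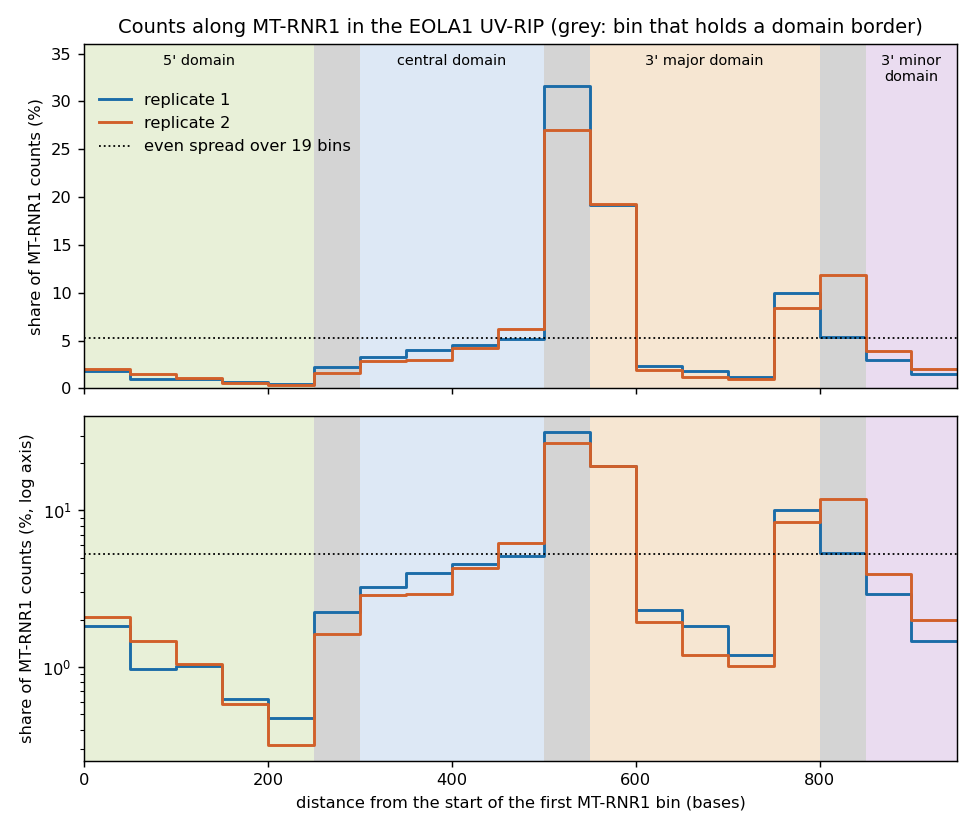
Share of MT-RNR1 counts (%) in each 50-base bin against the distance from the start of the first bin, in bases, on a linear axis (top) and a log axis (bottom). Lines are the 2 replicates, the dotted line is an even spread over 19 bins, colours mark the domains and grey the bins that hold a border between domains. Both replicates have their highest bin at the border of the central and 3' major domains, with 31.6% and 27.1% of the counts, and a second peak near the 3' end.

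MT-RNR1 had 38176 of the 114188 counts of the chromosome in replicate 1 and 57526 of 217229 in replicate 2. The 95% Wilson interval of its share ran from 33.2% to 33.7% in replicate 1 and from 26.3% to 26.7% in replicate 2. The intervals cover counting error only and take each count as independent. They did not overlap, so under that assumption the replicates differed by more than counting error. Without its 2 highest bins the gene held 16.4% and 14.2% of all counts. Neither an input nor a control precipitation was among the tables analysed, and recovery with EOLA1 cannot be told apart from the abundance or accessibility of each stretch of the RNA.

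The main peak was narrow at both edges. The bin from 1151 to 1200 had 12063 counts in replicate 1 and 15567 in replicate 2, which was 5.57 ± 0.610 times the gene's mean bin (SD, n = 2). It was the highest bin of the whole chromosome in replicate 1 and rank 2 in replicate 2. The bin from 1201 to 1250 had 7333 and 11093 counts, ranks 2 and 4, and took nearly the same share of the gene in both replicates, 19.2% and 19.3%. No other bin of the gene reached 0.5 of the highest one, so the width at that height was 2 bins in each replicate. The rise into the peak was 6.15-fold and 4.35-fold over the bin before it. The drop beyond it was steeper: the bin from 1201 to 1250 stood 8.31-fold and 9.90-fold above the bin that follows. The 10 bins before the highest bin held 24.1% and 23.4% of the counts, and the 7 bins after the peak 25.1% and 30.2%.

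The peak bin from 1151 to 1200 holds the conserved stretch at the neck, where the central domain ends and the 3' major domain begins. A bin is the finest resolution of these data, so the peak cannot be assigned to one side of this border. Bins were matched to domains from knowledge of the conserved fold of small subunit rRNA, not from a sequence, and each bin that holds a border was kept apart. The 5 bins wholly within the 3' major domain held 34.6% and 31.8% of the counts. Of these, the bin that completes the peak held more than the other 4 together. The 4 bins within the central domain held 16.9% and 16.3%, and the 2 bins within the 3' minor domain 4.41% and 5.91%. Per bin the 5' domain stood at 0.198 ± 0.0148 times the gene's mean bin and the central domain at 0.789 ± 0.0204 times. The 3' major domain stood at 1.26 ± 0.0745 times and the 3' minor domain at 0.490 ± 0.101 times (SD, n = 2). The order of the 4 domains per bin was the same in both replicates, with no overlap between neighbours in that order. The first place of the 3' major domain rests on the bin that completes the peak. The other 4 bins of that domain together held fewer counts than the 4 of the central domain in both replicates. The order also holds only with the border bins kept apart. With each given to the domain before it, the central domain held 45.9% of the counts in 5 bins and the 3' major domain 41.8% in 6. These 2 thus changed places per bin. With each given to the domain after it, the 3' minor domain held 13.7%, and the central domain 18.5% in more bins. Those 2 then changed places per bin in the mean and in replicate 2, but not in replicate 1.

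**Figure D2:**
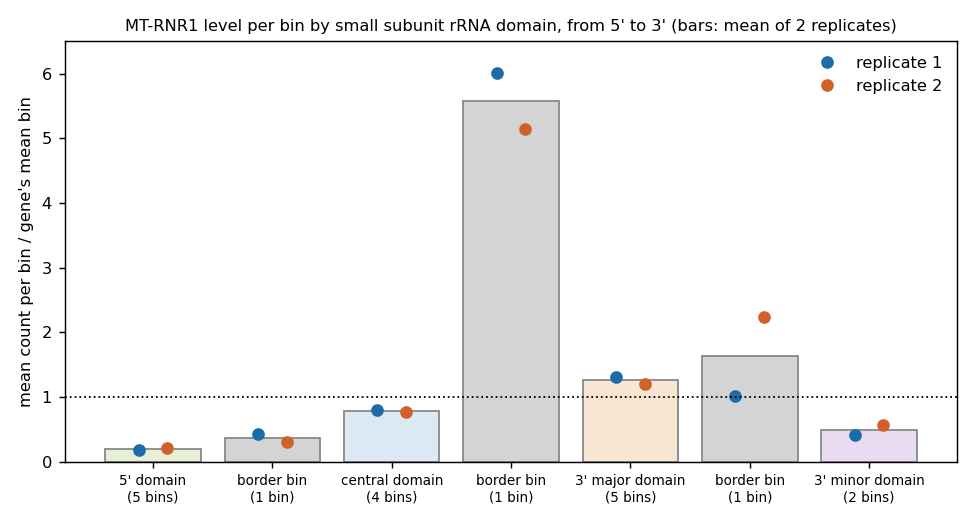
Mean count per bin of each domain, and of each single bin that holds a border between domains, divided by the mean bin of MT-RNR1, in order from 5' to 3'. Bars are means of 2 replicates, points are the replicates and the dotted line is the gene's mean. The bin at the border of the central and 3' major domains stands at 6.004 and 5.142, the 5' domain at 0.188 and 0.209.

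Along the 5' domain the counts fell away from the start of the gene. The first bin, from 651 to 700, had 702 and 1193 counts. The bin from 701 to 750 had 373 and 847, and that from 751 to 800 had 391 and 603. The bins from 801 to 850, with 239 and 334 counts, and from 851 to 900, with 182 and 183, were the lowest of the gene in both replicates. The first bin was 3.86-fold and 6.52-fold higher than the bin from 851 to 900. In replicate 2 every step was downward, and in replicate 1 all but that into the bin from 751 to 800, which was 1.05-fold higher than the one before.

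From the end of the 5' domain the profile climbed without a break up to the peak. The bin from 901 to 950, which holds the border of the 5' and central domains, had 854 and 933 counts, 4.69-fold and 5.10-fold above the bin before it. In the central domain the counts went on from 1243 and 1660, from 951 to 1000, to 1513 and 1688 in the next bin. They reached 1736 and 2452 from 1051 to 1100, and 1963 and 3577 from 1101 to 1150. All 6 steps from the bin at 851 to the bin at 1151 were upward in both replicates. The first and the last of them were the steep ones, and the 4 between them ran from 1.02-fold to 1.78-fold. The central domain thus formed a shoulder on the 5' side of the peak, whereas no such shoulder was present on its 3' side.

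Beyond the peak, in the 3' major domain, lay a trough of 3 bins. Counts were 882 and 1120 from 1251 to 1300, 699 and 683 from 1301 to 1350, and 459 and 581 from 1351 to 1400. The trough held 5.34% and 4.14% of the gene's counts, at 0.300 ± 0.0537 times the gene's mean bin. It was shallower than the low stretch from 701 to 900, whose 4 bins stood at 0.155 ± 0.0106 times that mean. The trough ended in a step of 8.34-fold and 8.29-fold into the bin from 1401 to 1450, a rise of nearly equal size in both replicates.

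The peak near the 3' end was the place where the replicates differed most in shape. The bin from 1401 to 1450, at the end of the 3' major domain, had 3826 and 4818 counts. The bin from 1451 to 1500 had 2034 and 6792. The summit therefore lay in the first of these bins in replicate 1 and in the second in replicate 2, where the second was 1.41-fold higher than the first. The bin from 1451 to 1500 holds the border of the 3' major and 3' minor domains and the start of the decoding helix, with the cytosines that NSUN4 and METTL15 methylate. It took 5.33% of the gene in replicate 1 and 11.8% in replicate 2, a ratio of 2.22. Towards the 3' end the counts fell to 1123 and 2245 from 1501 to 1550, and to 561 and 1157 from 1551 to 1600. This last bin holds the adenosines that TFB1M dimethylates, and it stood at 0.331 ± 0.0728 times the gene's mean bin. The bin from 1051 to 1100, with the uridine that TRMT2B methylates in the central domain, stood at 0.837 ± 0.0383 times. None of the bins with these modified bases was among the 2 of the main peak.

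At the edges of the gene the profile changed in unlike ways. The bin before the gene, from 601 to 650, lies almost wholly in MT-TF and had 28 and 44 counts, so the first MT-RNR1 bin was 25.1-fold and 27.1-fold higher. The bin after the gene lies in MT-TV and had 284 and 519 counts, and the last MT-RNR1 bin was 1.98-fold and 2.23-fold above it. The tRNA bin was thus a shallow dip between the 2 rRNAs, with the first bin of MT-RNR2 2.12-fold and 1.67-fold above it. That MT-RNR2 bin, from 1651 to 1700, was assigned by its midpoint and may hold part of MT-TV. No other step into, within or out of the gene was as large as that at its 5' edge.

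Low bins were defined as those under 25% of the gene's mean bin in both replicates, that is under 502 and 757 counts. There were 4 of them: the 3 bins from 751 to 900 and the bin from 1351 to 1400. Each replicate alone gave 5. The lowest bin, from 851 to 900, was still 2.72 times the chromosome's median bin of 67 counts in replicate 1, but 1.17 times the median of 157 in replicate 2. All 19 bins were above the chromosome's median bin in both replicates. Of the 19, 17 and 15 were above the chromosome's mean bin in replicates 1 and 2, and 15 were so in both. Over the whole chromosome, the bin of rank 62 in replicate 1 (345 counts) was above the mean bin of 343.94, and rank 63 (319) below. In replicate 2 rank 53 (683 counts) was above the mean bin of 654.304, and rank 62 (603) below. The bins of MT-RNR2 were also all above the chromosome's median bin, the lowest having 243 counts in replicate 1 and 225 in replicate 2. Of its 32 bins, 30 and 27 were above the chromosome's mean bin in replicates 1 and 2. The low stretches were thus low against the rest of the gene, though none was under the chromosome's median bin.

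The replicates placed the counts in similar proportions along the gene. Across the 19 bins their shares had a Pearson correlation of 0.968 and a Spearman correlation of 0.960, and without the 2 highest bins 0.824 and 0.944. These are descriptions across neighbouring bins, which may share RNA fragments and are not independent. In all, 9.89% of the counts would have to move to another bin to turn one profile into the other, and 15.3% without the 2 highest bins. Over all its bins the same figure was 24.9% for MT-RNR2 and 25.2% for the bins outside both rRNAs, values that were not tested against each other.

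The share within the gene differed over 1.5 times between replicates in 3 of the 19 bins, against 36.1% of all 332 bins taken within their own gene or within the bins outside the rRNAs. Of the 3, the bins from 1451 to 1500 (2.22-fold) and from 701 to 750 (1.51-fold) were higher in replicate 2, and 9.64% of all bins were so. The bin from 1301 to 1350 was 1.54-fold higher in replicate 1, as were 26.5% of all bins by over 1.5 times. The bin from 851 to 900 lay just inside the limit, at 1.4986-fold higher in replicate 1. Among bins with at least 500 counts in both replicates 2 of 14 differed, against 29.5% of all such bins.

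These differences were tested with Fisher's exact test on counts, each bin against the rest of its gene, 2-sided and adjusted by Benjamini-Hochberg over all 332 bins. Of the MT-RNR1 bins 15 of 19 passed an adjusted p of 0.05, against 46.7% of all bins. The test compares 2 libraries and not conditions, and it passes small differences where counts are high: the median bin had 882 and 1193 counts in MT-RNR1. The bins that did not pass Fisher's exact test were those from 751 to 800 (adjusted p = 0.821), from 801 to 850 (0.507), from 1051 to 1100 (0.0732) and from 1201 to 1250 (0.847), the second bin of the main peak. The highest bin passed at a ratio of only 1.17 in favour of replicate 1. Over the gene the chi-square value per degree of freedom was 94.96, where counting error alone gives about 1 if all counts are independent. What was counted is not given, and the source of the excess was not tested.

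**Figure D3:**
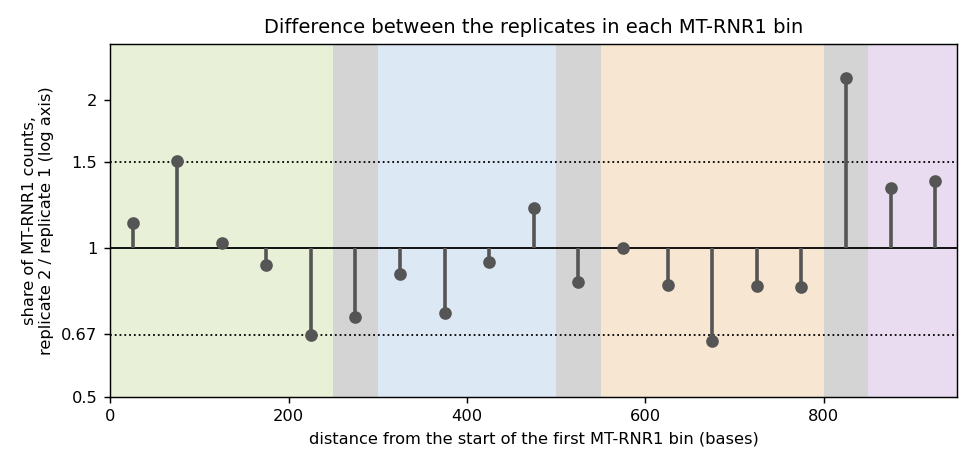
Share of MT-RNR1 counts in replicate 2 divided by that in replicate 1, for each bin, on a log axis, against the distance from the start of the first bin in bases. Dotted lines mark 1.5 times in either direction and colours the domains. The bin with the border of the 3' major and 3' minor domains stands apart at 2.22, and the second bin of the main peak lies at 1.00.

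MT-RNR2 encodes the 16S rRNA, the core of the large subunit. It is the most alike gene, as it comes from the same transcript and was covered at a similar level. Per bin MT-RNR1 was 1.28 times MT-RNR2 in replicate 1 and 1.09 times in replicate 2, a log2 difference of 0.24 ± 0.17 (SD, n = 2). An exact sign-flip permutation test gave p = 0.5 (2-sided), the smallest value that 2 replicates allow. The excess rested on the main peak. Without the 2 highest bins of each gene the ratio was 0.814 and 0.954, and between median bins it was 0.827 and 0.6702, so outside its peak MT-RNR1 was not above MT-RNR2 in either replicate.

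The counts of MT-RNR1 were also spread over fewer bins. Its highest bin was 13.7 and 13.05 times the gene's median bin, and that of MT-RNR2 4.54 and 9.33 times. The effective number of bins, which is the number that would give the same concentration if all were equal, was 6.24 and 7.02 of 19 for MT-RNR1, or 32.9% and 37.0%. For MT-RNR2 it was 19.7 and 11.7 of 32, or 61.5% and 36.4%. In replicate 2 the genes therefore hardly differed in this measure, and the difference was not tested. The highest MT-RNR2 bin changed place between replicates, from 2251 to 2300 in replicate 1 and from 2101 to 2150 in replicate 2, with 4842 and 16605 counts. The highest MT-RNR1 bin was the same in both.

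**Figure D4:**
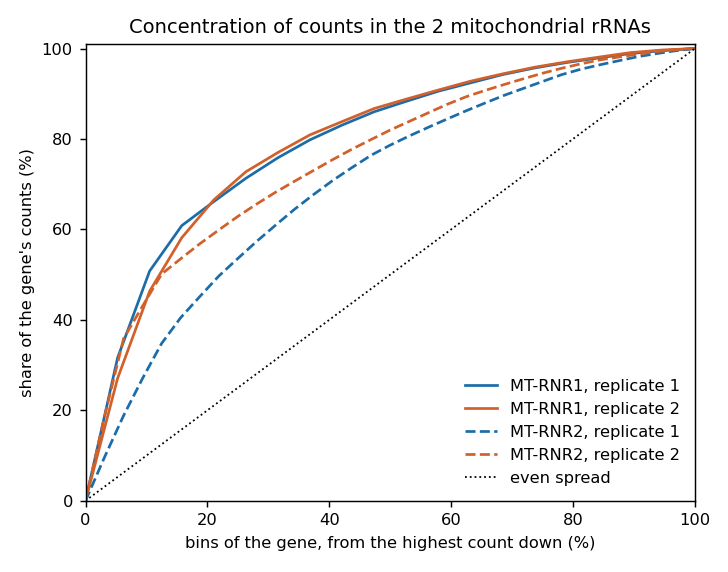
Cumulative share of each gene's counts (%) against the share of its bins (%), taken from the highest bin down, for MT-RNR1 (full lines) and MT-RNR2 (dashed lines) in the 2 replicates. The dotted diagonal is an even spread. The MT-RNR1 lines of both replicates run close together, with the 2 highest of 19 bins at 50.8% and 46.3%, while the MT-RNR2 lines of the replicates lie apart.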

How the data were processed

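The authors deposited, for each of the 2 UV-RIP libraries, whole-number counts in bins of 50 bases (the last of 19) of the mitochondrial chromosome. Per the submitters' processing notes the tools include Trim Galore, STAR and Picard and the builds GRCh38.p14. Not given in the sources used here is what was counted (reads, fragments or bases), nor strand, duplicates or the treatment of reads that also match nuclear copies of mitochondrial DNA. If reads were counted in every bin they touch, neighbouring bins share reads and the intervals are too narrow.

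Counts were not normalised other than as shares or as multiples of a mean bin. Bins were assigned to a gene by their midpoint. Intervals are Wilson intervals at 95%. Local maxima had to reach at least 0.5 of the gene's mean bin and counted as shared where they lay in the same or the next bin. Fisher's exact tests were tested on simulated counts, drawn independently for each bin from 1 profile, with some bins changed by a set fold. That setting has no further spread between libraries and no reads shared between bins. It therefore does not show the error rate of the test in these data. Python 3.11.15 and SciPy 1.17.1 were used. MT-RNR1, its domains and all tests were chosen with earlier results of these data known. The genes named were MT-RNR1 in full, MT-RNR2 as the most alike gene and the flanking tRNAs. Alternatives were other rules for the edges of the gene, medians, summed replicates, other limits and each replicate alone. No sequence of the human mitochondrial chromosome was used here.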

Additional observations from a re-analysis of the deposited data

How the results depend on the processing

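The level of MT-RNR1 per bin, 5.23 times the chromosome's mean, was 16.9 times the mean bin outside the rRNAs and 10.4 times with median bins in gene and chromosome, since the rRNAs themselves raise the chromosome's mean. The log2 ratio of MT-RNR1 over MT-RNR2 per bin turned to −0.18 without the 2 highest bins of each gene and to −0.43 with median bins. Low bins numbered 1 under 10% of the gene's mean bin and 2 under the chromosome's mean bin. With border bins given to the domain before them, shares were 7.15% for the 5' domain, 45.9% for the central and 41.8% for the 3' major domain. With border bins given to the domain after them, shares were 18.5% for the central, 62.5% for the 3' major and 13.7% for the 3' minor domain. As shares of all chromosome counts, 7 of the 19 bins differed over 1.5 times between replicates. Of the 329 bins of the chromosome above 0 in both replicates, 150 did so. Local maxima in the same or the next bin of both replicates numbered 2, also with a running mean over 3 bins or a higher limit, though without smoothing the 3' summit lay in neighbouring bins. Leaving out 1 of 2 replicates leaves the other's own value, so it is no test of stability, and the share of MT-RNR1 ran from 26.5% to 33.4%. No paired analysis was possible because the UV-RIP has 1 group, with nothing to pair its replicates with.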
